A study of Mus musculus with 36 samples.

Results

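The transcripts of 5 secreted proteins, Gdf15, Fgf21, Adm2, Stc2 and Vegfa, were followed across 36 RNA-seq libraries of mouse embryonic fibroblasts. They were chosen by name, as secreted products of genes linked to the integrated stress response (ISR), and are 5 of the 36856 gene symbols in the count table. Earlier results of these data were known at that choice. Numbers of the 5 called, set beside shares of all genes, therefore describe and do not test. The fibroblasts were wild type (WT) or carried a knockout of the kinase PERK (PERK -/-). Each genotype received the solvent DMSO, thapsigargin, BtdCPU, halofuginone, BtdCPU with thapsigargin, or halofuginone with thapsigargin, which made 12 groups of 3 libraries. The labels give no dose, treatment time or batch, and do not say whether either genotype is a single clone, so a genotype effect and another difference between the lines cannot be told apart. Nothing in the labels says that replicates came from separate cultures, so p-values measure only the spread between these libraries, which may be technical.

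In the ISR, one of several kinases phosphorylates the translation factor eIF2 alpha, general protein synthesis falls, and the transcription factor ATF4 is made in larger amounts and switches on genes of amino acid supply and stress adaptation. PERK is the kinase of this family that responds to stress in the endoplasmic reticulum, which thapsigargin causes by blocking its calcium pump. BtdCPU is known to activate the ISR through the kinase HRI, and halofuginone inhibits prolyl-tRNA synthetase and activates the kinase GCN2. The secreted products differ in their reach. GDF15 acts on the brainstem receptor GFRAL and lowers food intake, FGF21 is an endocrine growth factor of metabolism, adrenomedullin 2 is a vasoactive peptide, stanniocalcin 2 inhibits the protease PAPP-A, and VEGF-A drives blood vessel growth.

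Libraries held 32454257 to 37178107 counts. Levels are given as CPM, counts relative to the scaled library size, and a gene is called changed where edgeR's quasi-likelihood test gave an adjusted p (Benjamini-Hochberg over 16065 tested genes) below 0.05. All 5 transcripts passed the filter on low counts. Gdf15 and Fgf21 did so through the treated groups, since no DMSO library held more than 6 counts of Gdf15 or 8 of Fgf21. Eif2ak3, the gene of PERK, stood at 31.1 ± 1.10 CPM (SD, n = 3) in WT and 9.95 ± 0.760 CPM in PERK -/- DMSO libraries, and in no treatment did a PERK -/- library reach the lowest WT library. All 12 fibroblast markers examined had a mean of at least 1 CPM. Their summed level was 24513 to 32597 CPM in WT DMSO and 15890 to 18696 CPM in PERK -/- DMSO libraries, and the part of this difference in the genotype comparisons was not tested. Summed markers of endothelial cells (0 of 5 with a mean of at least 1 CPM) reached at most 2.11 CPM, and those of hepatocytes, a main source of circulating FGF21, at most 0.405 CPM (0 of 5). The summed level of epithelial markers stood highest with halofuginone in WT cells. Their sum was 0.836 to 1.09 CPM in WT DMSO libraries but up to 29.0 CPM with halofuginone (every library above those with halofuginone and thapsigargin) and 10.3 to 12.9 CPM with halofuginone and thapsigargin in WT. For DMSO and these treatments it was 1.39 to 1.96, 3.13 to 4.88 and 1.69 to 2.46 CPM in PERK -/- cells. The keratins Krt8, Krt18 and Krt19 (3 of 5 markers with a mean of at least 1 CPM) made up most of that sum, while Epcam did not pass 0.169 CPM in any library; their part in the halofuginone results was not tested. Sums for hematopoietic (1 of 4 markers with a mean of at least 1 CPM), adipocyte (1 of 5) and skeletal muscle markers (1 of 5) reached at most 3.81, 6.52 and 9.78 CPM. The highest muscle sums, 6.66 to 9.78 CPM, were in PERK -/- cells with BtdCPU, against 4.41 to 5.70 CPM in their DMSO libraries, and their part in the BtdCPU results was not tested either. In bulk RNA, fewer cells expressing a gene and less RNA per cell cannot be told apart.

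The stretch around each start site was read to see what the transcripts share beyond their behaviour. RefSeq windows of GRCm38.p6, from 250 bases before to 50 bases after a start, gave 7 windows for the 5 genes. The deposited counts were made on GRCm39, so no count was read by these coordinates. Fgf21 (chr7:45615441-45615740, minus strand) is shown because it alone held the ATF4 composite core, Adm2 (chr15:89322470-89322769, plus strand) because its levels followed those of Fgf21 most closely, and Stc2 (chr11:31370012-31370311, minus strand) because its levels followed the others least. Capitals mark every match, on either strand, to the ATF4 composite core TGATGNAA, the cAMP response element TGACGTCA, the hypoxia element core ACGTG, the endoplasmic reticulum stress element part CCACG or the antioxidant element core TGACNNNGC.
Fgf21: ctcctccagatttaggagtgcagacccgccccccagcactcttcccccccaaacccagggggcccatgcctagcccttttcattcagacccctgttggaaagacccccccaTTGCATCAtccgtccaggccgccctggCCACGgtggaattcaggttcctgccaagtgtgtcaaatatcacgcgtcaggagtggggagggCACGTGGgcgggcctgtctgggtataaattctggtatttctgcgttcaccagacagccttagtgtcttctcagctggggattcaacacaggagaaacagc
Adm2: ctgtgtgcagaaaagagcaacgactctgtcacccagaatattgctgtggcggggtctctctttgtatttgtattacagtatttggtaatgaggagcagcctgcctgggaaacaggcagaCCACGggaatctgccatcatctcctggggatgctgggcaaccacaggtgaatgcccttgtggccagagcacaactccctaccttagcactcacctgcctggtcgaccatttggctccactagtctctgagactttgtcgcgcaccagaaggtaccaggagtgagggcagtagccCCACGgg
Stc2: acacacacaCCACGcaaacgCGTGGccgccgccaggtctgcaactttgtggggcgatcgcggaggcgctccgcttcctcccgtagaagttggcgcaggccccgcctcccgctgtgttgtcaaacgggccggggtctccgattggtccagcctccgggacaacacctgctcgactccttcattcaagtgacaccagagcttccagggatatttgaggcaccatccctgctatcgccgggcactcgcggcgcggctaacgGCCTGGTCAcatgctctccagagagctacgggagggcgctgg

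The composite core, bound by ATF4 with a C/EBP partner, was found in 1 of the 7 windows, that of Fgf21, where TTGCATCA lies on the opposite strand from position -139 to -132. It was present in 3.97% of the 32851 windows in the table. The full cAMP response element was in none of the 7 windows and in 1.79% of all. The hypoxia element core was in 3 of the 7 windows, of Gdf15, Fgf21 and Vegfa, and in 19.6% of all. For Gdf15 and Vegfa the match lay only in the second of the gene's windows. The second Vegfa window (chr17:46025114-46025413, minus strand) lies downstream of the first (chr17:46032328-46032627), which held no such match. The endoplasmic reticulum stress part was in 5 of the 7 and in 32.8% of all, and in Fgf21 a match of it overlaps the hypoxia core within CACGTGG. The antioxidant core was in the Stc2 window and in 12.4% of all. Such matches describe letters and not binding, and sites outside these windows were not searched.

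The first question was how the 5 transcripts respond to endoplasmic reticulum stress when PERK is present. All 5 rose with thapsigargin in WT cells, where 24.9% of tested genes rose and the median of all genes was 0.02 on the log2 scale. Fgf21 and Gdf15 went from at most 8 counts in a library to at least 76, Adm2 rose 36.7-fold, Stc2 7.66-fold and Vegfa 3.75-fold.

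Gdf15 held 0, 6 and 0 counts in the WT DMSO libraries and 97, 132 and 76 counts with thapsigargin. Pooled over the libraries, this was a 49.6-fold rise with an exact interval of 22.5 to 136.3 (95%, counting error only) and an edgeR adjusted p of 4.04e-09. Here and below, exact intervals leave out the spread between libraries. All 6 DMSO counts came from replicate 2, and without it the fitted log2 change went from 5.55 to 9.70 against 2 libraries at 0.

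Fgf21 held 8, 7 and 0 counts in WT DMSO and 427, 744 and 350 with thapsigargin, a 99.0-fold rise by pooled counts (exact interval 59.8 to 177.3, edgeR adjusted p = 1.07e-10). The groups did not overlap. Replicate 2 was the highest of its group, at 20.1 CPM against 13.2 and 9.71 CPM.

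Adm2 measured 0.514, 0.365 and 0.186 CPM in WT DMSO libraries and 17.6, 12.6 and 9.71 CPM with thapsigargin. The groups lay far apart, and the log2 fold change was 5.20 ± 0.427 (SE, edgeR adjusted p = 1.58e-11). Stc2 measured 5.63, 5.85 and 7.58 CPM in DMSO and 52.8, 43.3 and 49.7 CPM with thapsigargin, a log2 fold change of 2.94 ± 0.216 (edgeR adjusted p = 1.47e-12). Vegfa, already abundant at 36.3, 41.1 and 30.8 CPM in DMSO, stood at 139.8, 133.8 and 132.3 CPM with thapsigargin. Its log2 fold change was 1.91 ± 0.144 (edgeR adjusted p = 2.38e-12), and the treated libraries all lay above the DMSO libraries.

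**Figure D1:**
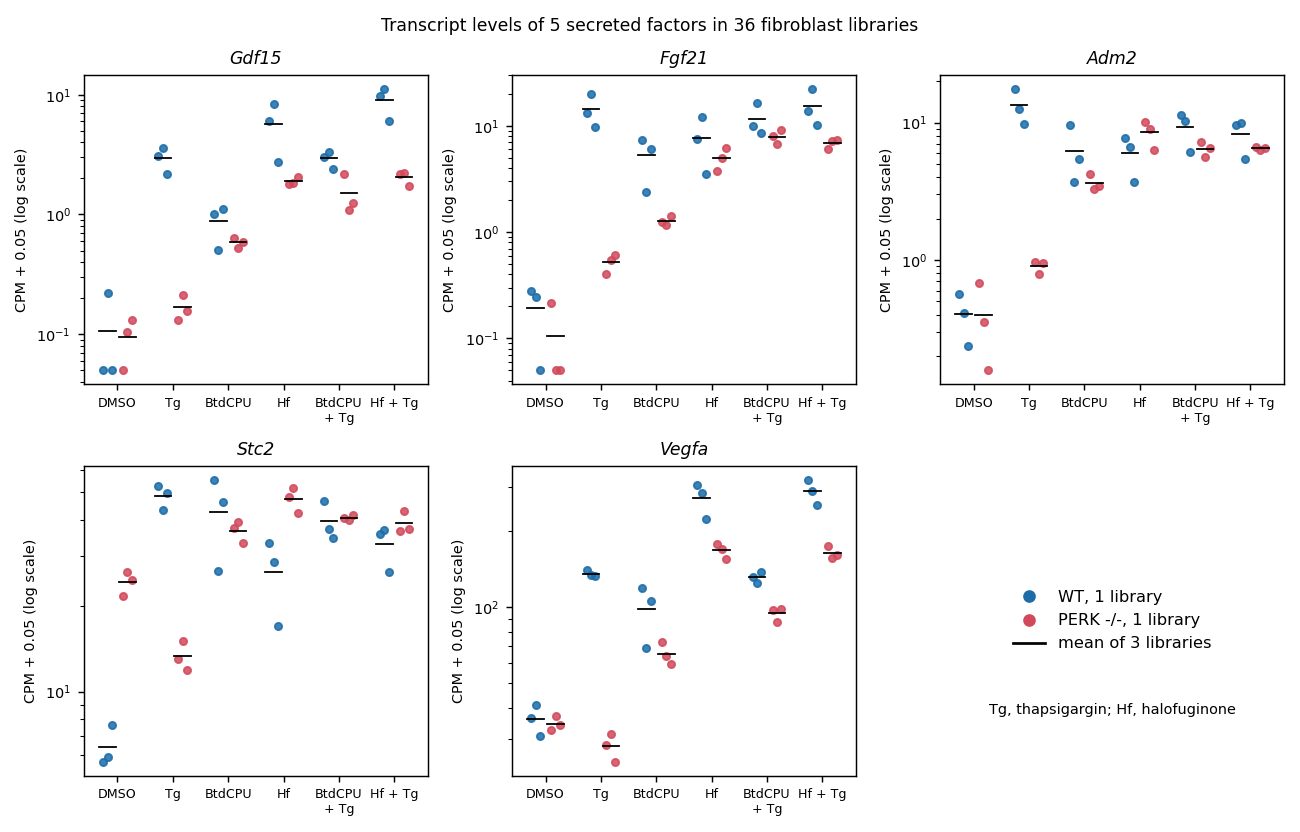
Levels of the 5 transcripts in every library: the vertical axis is CPM plus 0.05 on a log scale, the horizontal axis the 6 treatments, points are single libraries (WT blue, PERK -/- red) and bars are means of 3. In PERK -/- cells with thapsigargin (Tg), Stc2 and Vegfa lie at 13.3 and 28.0 CPM on average, and both added compounds bring all 5 transcripts above the level with thapsigargin alone.

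The responses to thapsigargin split in PERK -/- cells. Of the 5 transcripts, 2 rose (Fgf21 and Adm2, beside 15.2% of all tested genes), 1 fell (Stc2, beside 12.7% of genes falling), and Gdf15 and Vegfa did not pass the test. The fall of Stc2 went the opposite way to its rise in WT cells.

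Stc2 measured 21.6, 26.2 and 24.6 CPM in PERK -/- DMSO libraries and 13.0, 15.0 and 11.9 CPM with thapsigargin. The groups did not overlap, and the log2 fold change was -0.86 ± 0.202 (edgeR adjusted p = 0.00143), called under every alternative tried. Vegfa measured 32.6, 37.0 and 34.0 CPM in DMSO and 28.3, 31.4 and 24.4 CPM with thapsigargin. Its treated libraries were all below its DMSO libraries, but the log2 fold change of -0.30 (interval -0.59 to -0.01) had an edgeR adjusted p of 0.117. It passed at -0.44 (edgeR adjusted p = 0.0435) without the second thapsigargin library, at -0.34 (0.0237) with only the compared groups fitted and at -0.33 (0.0493) without the count filter.

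Fgf21 held 6, 0 and 0 counts in PERK -/- DMSO libraries and 13, 18 and 21 counts with thapsigargin. The pooled ratio was 8.59 (exact interval 3.69 to 24.5, edgeR adjusted p = 0.0157). This call was lost without thapsigargin replicate 3 (0.0558) and without DMSO replicate 2 (0.0763) or 3 (0.0798). Without DMSO replicate 1, which held all 6 counts, the fitted log2 change went from 3.02 to 7.08.

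Adm2 measured 0.628, 0.303 and 0.108 CPM in PERK -/- DMSO and 0.921, 0.736 and 0.908 CPM with thapsigargin. The treated libraries were all higher, by 1.30 ± 0.489 on the log2 scale with an edgeR adjusted p of 0.0452. That call was lost when any one of the 3 thapsigargin libraries (0.0666 to 0.123) or DMSO replicate 2 (0.127) or 3 (0.258) was left out, the log2 change falling to 0.83 without DMSO replicate 3 and reaching 2.05 without DMSO replicate 1. Gdf15 held 0, 2 and 3 counts in DMSO and 3, 6 and 4 with thapsigargin, a ratio of 2.58 whose exact interval of 0.862 to 9.24 includes no change (edgeR adjusted p = 0.335), so a difference was not detectable at this depth.

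The difference between the genotypes in the thapsigargin response was tested directly. A negative value means a smaller response in PERK -/- cells or, as for Stc2, one in the opposite direction. The difference was negative and called for 4 of the 5 transcripts (18.6% of tested genes were called lower). For Stc2 it was -3.80 ± 0.294 on the log2 scale (edgeR adjusted p = 2.31e-11), for Adm2 -3.90 ± 0.694 (3.73e-05) and for Vegfa -2.21 ± 0.201 (4.27e-10). Without PERK -/- DMSO replicate 1 the Adm2 value was -3.15. Gdf15 gave -4.25 ± 1.44 (edgeR adjusted p = 0.019), but the call was lost without PERK -/- DMSO replicate 2 (-4.10, 0.072) or 3 (-3.58, 0.183), and the value was -8.40 without WT DMSO replicate 2. The transcript outside the count, Fgf21, had an estimate of -3.57 ± 1.67 with an edgeR adjusted p of 0.0922, and it was called by DESeq2 (0.00095) and without the count filter (0.000554). It was called in none of the 12 refits without 1 library, and without PERK -/- DMSO replicate 1, which held all 6 DMSO counts of that genotype, its sign turned (0.49, edgeR adjusted p = 0.773).

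In thapsigargin itself the level of all 5 was lower in PERK -/- than in WT cells (34.1% of tested genes were lower). The log2 differences were -4.93 for Fgf21, -4.59 for Gdf15, -3.95 for Adm2, -2.27 for Vegfa and -1.87 for Stc2, with edgeR adjusted p-values between 1.56e-14 and 5.08e-09. PERK -/- libraries held 3.26% of the WT thapsigargin mean for Fgf21, 4.05% for Gdf15 and 6.44% for Adm2. The shares for Vegfa, 20.7%, and Stc2, 27.4%, were larger. No PERK -/- library overlapped a WT library for any of the 5.

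BtdCPU alone raised all 5 transcripts in WT cells (12.9% of tested genes rose) and 4 of 5 in PERK -/- cells (2.55% rose). Halofuginone alone raised all 5 in both genotypes, beside 34.7% of genes in WT and 21.2% in PERK -/- cells. Each compound is compared here with the same DMSO libraries that the thapsigargin comparison used.

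With BtdCPU, Gdf15 held 29, 16 and 35 counts in WT libraries and 22, 18 and 20 in PERK -/- libraries. Against DMSO these were ratios of 13.9 (exact interval 6.13 to 39.1, edgeR adjusted p = 0.000128) and 11.8 (4.78 to 37.6, 0.00321). The fitted log2 change in WT went from 3.74 to 7.88 without DMSO replicate 2, and in PERK -/- cells from 3.46 to 4.12 without DMSO replicate 3. The counts of the genotypes overlapped.

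Fgf21 separated the genotypes under BtdCPU, with 220, 83 and 199 counts in WT and 45, 42 and 51 in PERK -/- libraries. The ratio to DMSO was 35.0 in WT (exact interval 21.0 to 63.0, edgeR adjusted p = 2.17e-07) and 22.6 in PERK -/- cells (10.1 to 62.6, 0.000749, the fitted log2 change moving from 4.41 to 8.47 without DMSO replicate 1). The level with BtdCPU was lower in PERK -/- than in WT cells by a log2 difference of -2.07 ± 0.442 (0.000208). The difference in response was -0.72 with an interval of -3.84 to 2.41, too wide at these DMSO counts to tell the responses apart or to call them alike, and without PERK -/- DMSO replicate 1 it was 3.34.

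Adm2 measured 9.56, 3.63 and 5.42 CPM in WT and 4.15, 3.22 and 3.42 CPM in PERK -/- libraries with BtdCPU. The groups overlapped, and both were far above DMSO, by 4.10 ± 0.429 in WT (edgeR adjusted p = 1.87e-08) and 3.37 ± 0.433 in PERK -/- cells (3.81e-06, 4.11 without DMSO replicate 1). Vegfa measured 119.6, 68.9 and 105.9 CPM in WT and 73.0, 63.8 and 59.5 CPM in PERK -/- libraries. Its rises were 1.44 ± 0.142 (5.01e-09) and 0.92 ± 0.141 (5.64e-05). Replicate 2 was the lowest WT BtdCPU library for each of the 5 transcripts.

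Stc2 with BtdCPU measured 55.3, 26.4 and 46.3 CPM in WT libraries, a rise of 2.75 ± 0.215 (edgeR adjusted p = 3.23e-11). In PERK -/- libraries it measured 37.5, 39.3 and 33.2 CPM, all above the DMSO libraries. That change of 0.60 ± 0.197 had an edgeR adjusted p of 0.0889. DESeq2 (0.0436), a fit of the compared groups only (0.00338) and a fit without the count filter (0.0007) called it.

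Stc2 was also the transcript whose starting level differed. In DMSO it stood at 24.1 ± 2.31 CPM in PERK -/- and 6.35 ± 1.07 CPM in WT cells (SD, n = 3), a log2 difference of 1.93 ± 0.212 (edgeR adjusted p = 4.66e-09). It was the 1 of 5 called between the genotypes in DMSO, where 24.6% of tested genes were higher, so the number called is near the share of all genes. Adm2 (-0.05, interval -1.21 to 1.10) and Vegfa (-0.06, interval -0.35 to 0.22) did not pass the test. For Gdf15 and Fgf21 the DMSO libraries of both genotypes held too few counts for a fold. The Stc2 response to BtdCPU was smaller in PERK -/- cells by -2.14 ± 0.287 (0.000158), the 1 difference called among the 5 (0.162% of genes were called lower), while the difference in the level reached was -0.22 (interval -0.62 to 0.18, adjusted p = 0.363). Without WT BtdCPU replicate 2 the response of Vegfa also differed (-0.72, 0.00984) and the Stc2 levels with BtdCPU differed by -0.47 (0.0315).

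Of the 3 agents given alone, halofuginone gave the highest Vegfa levels in each genotype. Vegfa measured 306.1, 284.1 and 224.1 CPM in WT and 177.6, 170.1 and 155.7 CPM in PERK -/- libraries, and the genotypes did not overlap. The rises over DMSO were 2.91 ± 0.149 (edgeR adjusted p = 1.21e-16) and 2.28 ± 0.145 (2.62e-13). Gdf15 held 193, 285 and 87 counts in WT and 65, 65 and 73 in PERK -/- libraries, which are 98.0-fold (exact interval 44.8 to 268.2, edgeR adjusted p = 1.9e-11) and 40.7-fold (17.1 to 126.6, 5.13e-08) above DMSO. The fitted Gdf15 change in WT moved from 6.53 to 10.67 without DMSO replicate 2, and that in PERK -/- cells from 5.24 to 5.91 without DMSO replicate 3. Replicate 3 was the lowest of the WT halofuginone libraries for every one of the 5 transcripts.

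Fgf21 with halofuginone held 239, 409 and 112 counts in WT and 139, 180 and 223 in PERK -/- libraries, ratios to DMSO of 52.7 (exact interval 31.8 to 94.7, edgeR adjusted p = 8.49e-10) and 90.5 (41.3 to 247.6, 9.97e-09). The fitted change in PERK -/- cells moved from 6.41 to 10.47 without DMSO replicate 1. Adm2 measured 7.71, 6.57 and 3.64 CPM in WT and 10.1, 8.90 and 6.25 CPM in PERK -/- libraries, which overlap. It rose by 4.05 ± 0.429 (9.37e-10) and by 4.60 ± 0.425 (3.67e-10, 5.34 without DMSO replicate 1).

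Stc2 measured 33.2, 28.5 and 17.0 CPM in WT and 48.0, 51.8 and 42.3 CPM in PERK -/- libraries with halofuginone, so the PERK -/- libraries were all higher. It rose by 2.05 ± 0.213 in WT (edgeR adjusted p = 6.02e-10) and by 0.97 ± 0.198 in PERK -/- cells (0.000166). The response differed between genotypes for 2 of the 5 transcripts, both smaller in PERK -/- cells (17.5% of genes were called lower): Stc2 by -1.07 ± 0.286 (0.00401) and Vegfa by -0.63 ± 0.197 (0.0131). The Vegfa difference was lost without WT halofuginone replicate 1 (-0.47, 0.0737) or PERK -/- halofuginone replicate 3 (-0.52, 0.0539), and Gdf15 was called at -5.43 (0.045) without WT DMSO replicate 2.

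The other question was what the compounds do when added to thapsigargin. BtdCPU added to thapsigargin raised all 5 transcripts over thapsigargin alone in PERK -/- cells (17.3% of tested genes rose), and so did halofuginone (25.2% rose). In WT cells none of them passed the test with BtdCPU added. Halofuginone there raised Gdf15 and Vegfa (22.8% rose) and lowered Stc2, 1 of 5, which is near the share of genes that fell (22.5%). These calls come from the fit without a replicate block. With the block, Adm2 was also called lower with halofuginone added in WT cells (-0.68, edgeR adjusted p = 0.00415). The combinations are read against the same thapsigargin libraries as above.

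**Figure D2:**
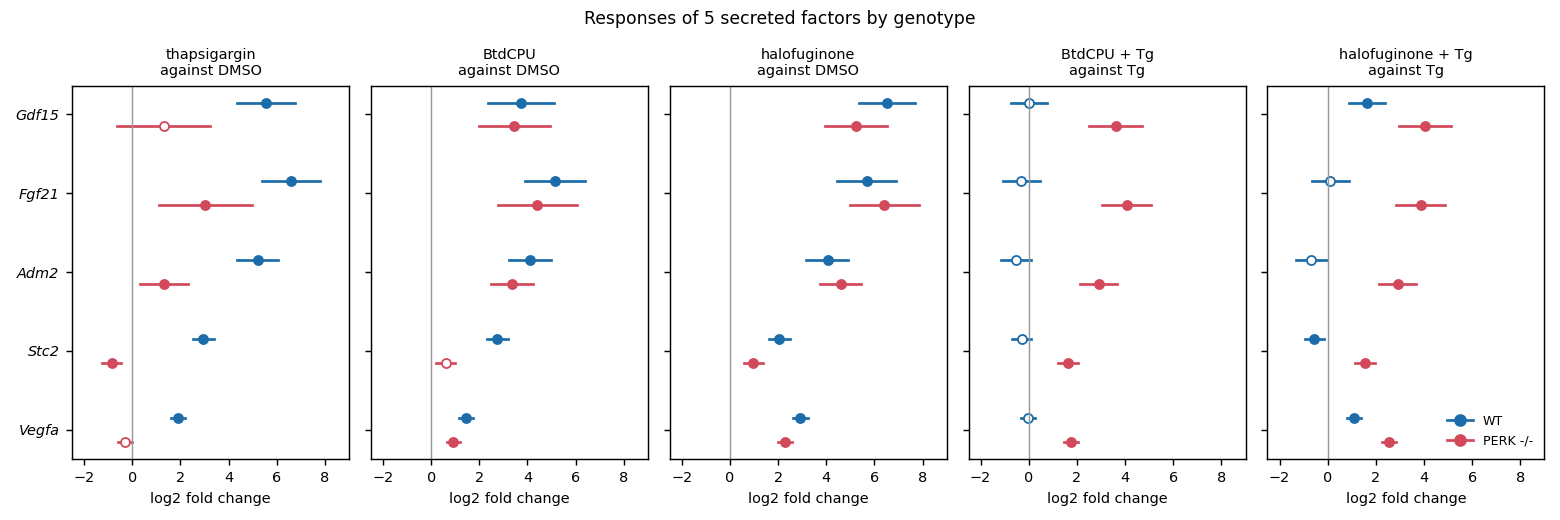
Fitted log2 fold changes of the 5 transcripts (horizontal axis) in 5 comparisons, WT in blue and PERK -/- in red, with 95% intervals as lines; filled points passed an adjusted p of 0.05 in edgeR's quasi-likelihood test and open points did not. With BtdCPU added to thapsigargin (Tg), the 5 WT points lie from -0.53 to 0.00 and the 5 PERK -/- points from 1.61 to 4.06.

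Gdf15 in PERK -/- cells held 80, 38 and 44 counts with BtdCPU and thapsigargin and 80, 80 and 63 with halofuginone and thapsigargin, against 3, 6 and 4 with thapsigargin alone. The ratios were 12.5 (exact interval 7.08 to 23.9, edgeR adjusted p = 4.26e-06) and 17.0 (9.73 to 32.4, 1.3e-07). Fgf21 held 297, 244 and 336 counts with the BtdCPU combination and 226, 265 and 275 with the halofuginone combination, 16.9-fold (12.7 to 22.7, 1.28e-07) and 14.6-fold (11.0 to 19.7, 8.89e-08) above thapsigargin alone. These exact intervals cover counting error only. On the log2 scale the edgeR intervals for Fgf21 were 3.05 to 5.08 and 2.84 to 4.87. For Gdf15 they were 2.49 to 4.71 and 2.96 to 5.13. For both transcripts each library with a compound was above each library without.

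Adm2 measured 7.14, 5.61 and 6.51 CPM with BtdCPU and thapsigargin and 6.59, 6.30 and 6.49 CPM with halofuginone and thapsigargin in PERK -/- cells. The rises were 2.90 ± 0.376 (edgeR adjusted p = 3.37e-07) and 2.91 ± 0.375 (8.89e-08), and the levels of the combinations overlap.

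Stc2 measured 40.6, 40.0 and 41.5 CPM with the BtdCPU combination and 36.7, 43.0 and 37.3 CPM with the halofuginone combination. Both groups lay above thapsigargin alone, and also above DMSO, by 1.61 ± 0.203 (edgeR adjusted p = 2.14e-07) and 1.55 ± 0.203 (1.12e-07) over thapsigargin.

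Vegfa parted the combinations. It measured 97.4, 87.3 and 98.7 CPM with BtdCPU and thapsigargin and 174.5, 156.4 and 160.8 CPM with halofuginone and thapsigargin, rises of 1.75 ± 0.144 (edgeR adjusted p = 9.15e-11) and 2.55 ± 0.147 (7.63e-15). The groups did not overlap.

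**Figure D3:**
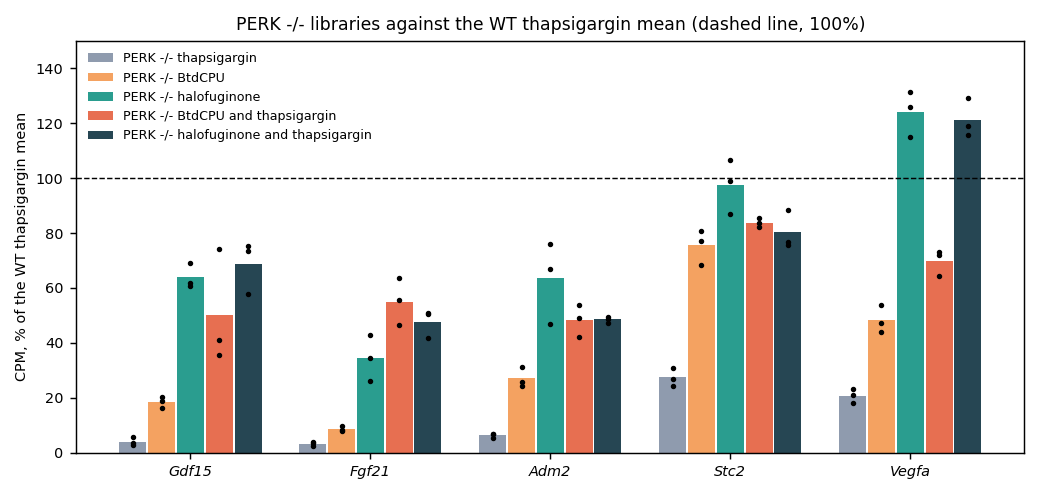
Mean CPM in 5 PERK -/- groups as a percentage of the WT thapsigargin mean (vertical axis, from 0; dashed line, 100%) for the 5 transcripts, with bars for means and dots for the 3 libraries. With thapsigargin alone the bars stand at 3.26% to 27.4%, and with halofuginone and thapsigargin Vegfa reaches 121.2%.

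Set against the WT thapsigargin mean, PERK -/- cells with BtdCPU and thapsigargin held 83.7% of the level for Stc2, 69.8% for Vegfa, 55.0% for Fgf21, 50.3% for Gdf15 and 48.3% for Adm2. With halofuginone and thapsigargin the shares were 121.2% for Vegfa, 80.3% for Stc2, 68.8% for Gdf15, 48.6% for Adm2 and 47.6% for Fgf21. For Gdf15 the libraries of both combinations overlapped the WT thapsigargin libraries, and for the others they did not. Halofuginone alone in PERK -/- cells gave 124% for Vegfa, 97.5% for Stc2, 63.9% for Gdf15, 63.5% for Adm2 and 34.4% for Fgf21. BtdCPU alone gave 48.4%, 75.5%, 18.5%, 27.1% and 8.60% in the same order.

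PERK -/- cells also held more of each transcript with BtdCPU and thapsigargin than with BtdCPU alone, although thapsigargin alone had raised 2 of the 5 and lowered 1. Fgf21 stood at 6.64 to 9.08 CPM with both and at 1.11 to 1.38 CPM with BtdCPU, and Vegfa at 87.3 to 98.7 and 59.5 to 73.0 CPM. Stc2, which thapsigargin alone had lowered, stood at 40.0 to 41.5 against 33.2 to 39.3 CPM. For each of the 5 the lowest library with both exceeded the highest with BtdCPU alone, as it did for 21.0% of all tested genes. No edgeR test of this comparison was run. Halofuginone did not show the same pattern. Means with thapsigargin and without it were 6.83 and 4.94 CPM for Fgf21 and 1.99 and 1.85 CPM for Gdf15. They were 6.46 and 8.43 CPM for Adm2, 39.0 and 47.4 for Stc2 and 163.9 and 167.8 for Vegfa. The libraries of these halofuginone groups overlapped for each of the 5.

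In WT cells BtdCPU over thapsigargin gave log2 changes of -0.53 for Adm2 (interval -1.16 to 0.11), -0.31 for Fgf21 (-1.07 to 0.46), -0.30 for Stc2 (-0.69 to 0.10), -0.04 for Vegfa (-0.32 to 0.24) and -0.00 for Gdf15 (-0.74 to 0.74). None passed edgeR's quasi-likelihood test (adjusted p 0.403 to 1, unadjusted p from 0.101), nor DESeq2, beside 1.29% of genes called higher and 1.02% called lower. Across libraries the levels overlap for all 5. The labels do not state a pairing, but same-numbered libraries deviated together here (correlations 0.159 to 0.337). Compared by number, 3 transcripts were lower with BtdCPU each time. Fgf21 measured 9.94, 16.3 and 8.57 CPM against 13.2, 20.1 and 9.71 CPM, Adm2 11.3, 10.2 and 6.07 against 17.6, 12.6 and 9.71 CPM, and Stc2 46.8, 37.1 and 34.7 against 52.8, 43.3 and 49.7 CPM. With the number as a block 0 of the 5 passed edgeR's test, the lowest adjusted p being 0.0711 for Adm2 (-0.53), while the share of all genes called in either direction went from 2.32% to 12.9%.

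Halofuginone over thapsigargin in WT cells took Gdf15 from 97, 132 and 76 to 338, 406 and 211 counts, a ratio of 3.10 (exact interval 2.73 to 3.54, counting error only). By edgeR the log2 change was 1.63 with an interval of 0.90 to 2.36 (adjusted p = 0.000389). Vegfa went to 319.3, 289 and 254.9 CPM, a rise of 1.09 ± 0.139 (1.64e-07), and neither transcript's groups overlapped. Stc2 measured 35.6, 36.8 and 26.2 CPM and fell by 0.57 on the log2 scale (0.0186). The fall was not called without WT thapsigargin replicate 1 (-0.50, 0.0716) or the third library with halofuginone and thapsigargin (-0.43, 0.124).

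Fgf21 measured 13.7, 22.4 and 10.1 CPM with halofuginone and thapsigargin in WT cells, a change of 0.10 (interval -0.66 to 0.87). Adm2 measured 9.61, 9.82 and 5.38 CPM there, lower than the same-numbered thapsigargin library in each of 3 pairs. Its change of -0.68 ± 0.313 had an edgeR adjusted p of 0.0756. With the replicate number as a block, a pairing the labels do not state, the change was -0.68 with 0.00415. It was also called without the count filter (-0.72, 0.0021) and without WT thapsigargin replicate 3 (-0.86, 0.0387).

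The gain from either added compound was larger in PERK -/- than in WT cells for all 5 transcripts (10.7% of tested genes were called higher for BtdCPU and 15.9% for halofuginone). For BtdCPU the differences in log2 change ran from 1.79 ± 0.198 for Vegfa (edgeR adjusted p = 9.53e-08) to 4.37 ± 0.627 for Fgf21 (5.64e-06). For halofuginone they ran from 1.46 ± 0.197 for Vegfa (8.89e-07) to 3.75 ± 0.626 for Fgf21 (2.06e-05). Each such difference is the genotype gap with both agents minus the gap in thapsigargin alone, so it is not independent of that gap. For Fgf21 with BtdCPU these gaps were -0.56 and -4.93. With either compound alone, against DMSO, the response was called larger in PERK -/- cells for none of the 5.

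Even so the genotypes did not end at equal levels in every case. With BtdCPU and thapsigargin, 2 of 5 transcripts were lower in PERK -/- cells (32.2% of tested genes were lower), namely Vegfa (-0.48 ± 0.138, edgeR adjusted p = 0.00373) and Gdf15 (-0.99 ± 0.377, 0.0249). That number is near the share of all genes. The Gdf15 call was lost when WT replicate 1 (0.0646) or 2 (0.0894) or PERK -/- replicate 2 (0.135) or 3 (0.107) of these groups was left out. With halofuginone and thapsigargin, 3 of 5 were lower (33.2% of genes): Gdf15 (-2.17 ± 0.368, 7.16e-06), Fgf21 (-1.17 ± 0.384, 0.009) and Vegfa (-0.81 ± 0.138, 7.75e-06). Fgf21 there was not called without WT replicate 2 (-0.80, 0.0939).

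With BtdCPU alone, 3 of 5 were lower in PERK -/- cells (27.1% of genes), Fgf21 as given above, Vegfa (-0.58 ± 0.139, edgeR adjusted p = 0.000715) and Adm2 (-0.78 ± 0.329, 0.0456). The Adm2 call was lost without WT BtdCPU replicate 1 (-0.33, 0.453) or 3 (0.051), without any one PERK -/- BtdCPU library (0.0544 to 0.124), with library sizes unscaled (-0.64, 0.105) and with only the compared groups fitted (0.0645). With halofuginone alone, Stc2 was higher (0.85 ± 0.197, 0.000361; 31.3% of genes were higher) and Gdf15 (-1.62 ± 0.369, 0.000307) and Vegfa (-0.69 ± 0.138, 5.98e-05) were lower (34.5% of genes). The numbers called with halofuginone alone are near the shares of all genes. Fgf21 in halofuginone was called lower only without WT halofuginone replicate 3 (-0.94, 0.0382) and without the count filter (-0.60, 0.0113). Vegfa was thus lower in PERK -/- cells in each of the 5 treatments with a compound, by log2 differences of -0.48 to -2.27.

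The order of levels across the 12 groups differed between the transcripts. Gdf15 was highest in WT cells with halofuginone and thapsigargin, at 8.97 ± 2.68 CPM (SD, n = 3), then with halofuginone at 5.67 ± 2.85 and thapsigargin at 2.89 ± 0.734 CPM, neighbours whose libraries overlap. Vegfa shared its top groups, 287.7 ± 32.2 and 271.5 ± 42.4 CPM, followed without overlap by both PERK -/- halofuginone groups at 167.8 ± 11.1 and 163.9 ± 9.43 CPM. Fgf21 was highest in WT with halofuginone and thapsigargin (15.4 ± 6.33 CPM) and with thapsigargin (14.3 ± 5.28 CPM), which overlap.

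Adm2 had its highest mean in WT with thapsigargin, at 13.3 ± 3.98 CPM. Its next 7 groups, from 9.22 to 5.97 CPM, each overlapped their neighbour. Stc2 ranged from 48.6 ± 4.83 CPM in WT with thapsigargin, overlapping PERK -/- with halofuginone at 47.4 ± 4.76 CPM, down to 6.35 CPM in WT with DMSO. The lowest group was DMSO for Gdf15, Fgf21 and Adm2, WT DMSO for Stc2 and PERK -/- with thapsigargin for Vegfa.

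Levels of different genes are compared per kilobase of annotated exon. In WT cells with thapsigargin Vegfa stood at 31.6, Fgf21 at 15.1, Adm2 at 10.2, Stc2 at 9.39 and Gdf15 at 1.56 CPM per kb. With thapsigargin in PERK -/- cells the same transcripts stood at 6.54, 0.492, 0.659, 2.57 and 0.0633 CPM per kb. Gdf15 was the least abundant of the 5 in all 12 groups and did not pass 4.84 CPM per kb.

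Vegfa is also a textbook target of the hypoxia-inducible factors (HIF), so 10 other HIF targets were read beside it. In WT cells 1 of 10 rose and 1 fell with thapsigargin (median log2 change -0.05), where 24.9% of all tested genes rose and 22.7% fell and Vegfa rose by 1.91. With halofuginone 3 rose and 6 fell (median -0.41), where 34.7% of all genes rose and 33.4% fell and Vegfa rose by 2.91, so the number that rose is near the share of all genes. Ndrg1, a stress-responsive gene that is also on the list, was the 1 that rose with thapsigargin (2.74 ± 0.172, edgeR adjusted p = 3.85e-14). With halofuginone Ndrg1 rose most (4.69 ± 0.185, 5.41e-19) and Ankrd37 fell most (-1.59 ± 0.396, 0.000741).

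With thapsigargin in PERK -/- cells 5 of the 10 rose and 1 fell (median 0.47; of all genes 15.2% rose and 12.7% fell), where Vegfa did not pass the test. Bnip3, a mitochondrial protein of mitophagy, rose most (1.90 ± 0.177, edgeR adjusted p = 8.06e-10) and Egln3, a HIF prolyl hydroxylase, fell (-0.60 ± 0.212, 0.0315). When halofuginone was added, 7 of 10 fell and 2 rose (median -1.07; 27.5% of all genes fell and 25.2% rose), while Vegfa rose by 2.55. With BtdCPU added, 5 fell and 1 rose (median -0.58), where 18.3% of all genes fell and 17.3% rose. Ankrd37 fell by 3.34 on the log2 scale (edgeR adjusted p = 6.98e-09) as Vegfa rose by 1.75. Ndrg1 rose most of the 10 with either compound added, by 2.13 with BtdCPU (3.12e-11) and 2.09 with halofuginone (4.4e-12). The all-gene medians lay between -0.04 and 0.05 in these comparisons.

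**Figure D4:**
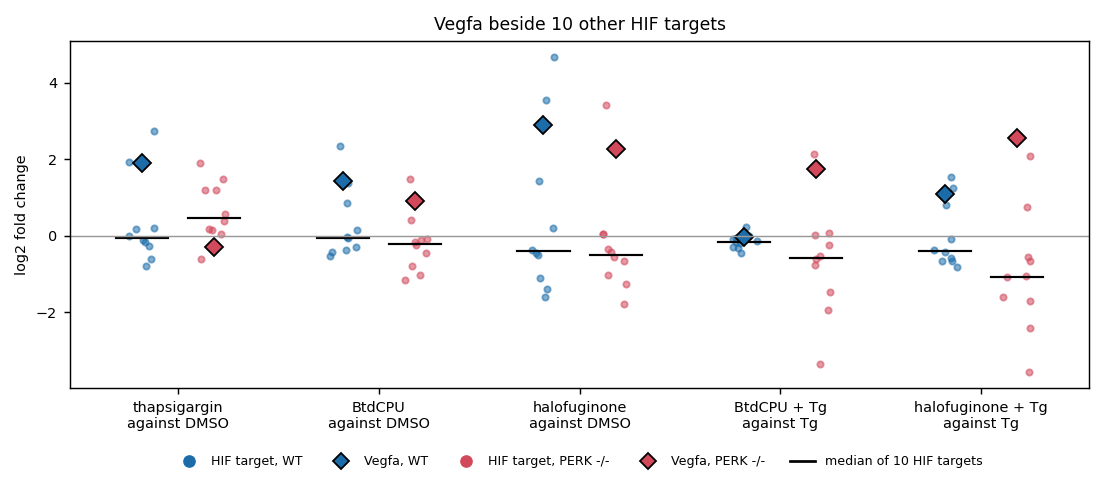
Log2 fold changes (vertical axis) of Vegfa (diamonds) and 10 other HIF targets (dots, black bar at their median) in 5 comparisons, WT in blue and PERK -/- in red. In PERK -/- cells Vegfa lies at -0.30 with thapsigargin against DMSO, below the list median of 0.47, and at 2.55 with halofuginone added to thapsigargin (Tg), above the list median of -1.07.

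The secreted factors were set beside 10 targets of the ISR that act inside the cell, such as enzymes of amino acid supply. With thapsigargin all 10 rose in WT cells (median log2 change 2.09, against 5.20 for the 5 secreted factors) and 6 rose in PERK -/- cells (0.71 against 1.30), beside 24.9% and 15.2% of all tested genes. With BtdCPU added to thapsigargin in PERK -/- cells 9 rose and 1 fell (1.48 against 2.90), and with halofuginone added 9 rose and 1 fell (1.89 against 2.91), where 17.3% and 25.2% of all genes rose. In WT cells 0 of the 10 passed the test for BtdCPU over thapsigargin. The secreted median of 5.20 was the value of Adm2, and Gdf15, Fgf21 and Adm2 held few counts in DMSO. Stc2 and Vegfa, with more counts, rose by 2.94 and 1.91 with thapsigargin in WT cells. In PERK -/- cells Stc2 fell and Vegfa did not pass the test. These lists were set with earlier results of these data known, so the counts describe and do not test.

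Among 11 tested regulators of stress transcription, 8 rose and 1 fell in WT cells with thapsigargin (24.9% of all tested genes rose and 22.7% fell), and 10 were lower in PERK -/- than in WT thapsigargin libraries (34.1% of all genes were lower). Atf3, a transcription factor of the same family as ATF4, rose most in WT cells (6.17 ± 0.256, edgeR adjusted p = 2.74e-18), and its thapsigargin response was smaller in PERK -/- cells by -5.39 ± 0.343 (7.2e-13). Xbp1, which carries another branch of the endoplasmic reticulum stress response through IRE1, rose most in PERK -/- cells with thapsigargin (1.32 ± 0.144, 1.82e-08). Egr1, an immediate early factor, fell most there (-3.81 ± 0.250, 5.75e-13).

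Across the 12 group means of log2 CPM the secreted factors followed each other to different degrees. Pearson's r was 0.98 for Fgf21 with Adm2, 0.96 for Gdf15 with Vegfa and 0.63 for Stc2 with Vegfa, the lowest of the 10 pairs. Among 10228 other genes or fewer the nearest to Gdf15 were Nfil3 (0.988), Atf3 (0.987) and Mettl3 (0.984), to Fgf21 Nfe2l1 (0.987), Gpt2 (0.976) and Klf9 (0.973), and to Adm2 Gpt2 (0.995), Slc7a11 (0.981) and Cyb5r1 (0.978). Stc2 had more distant neighbours, Zfyve9 (0.933), Eif4ebp1 (0.928) and Ets2 (0.924), and Vegfa had Hectd2 (0.987), Zfp623 (0.986) and Rnf11 (0.984). The points share libraries, depth and scaling, and these values describe likeness over 12 groups only.

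The receptors of the secreted factors were unevenly present in the fibroblasts. Gfral, the GDF15 receptor, held 11 counts over all 36 libraries, and Klb, the co-receptor that FGF21 needs, 84 counts. Fgfr1, which pairs with Klb, was abundant, at 540.6 ± 17.6 CPM in WT and 216.1 ± 4.25 CPM in PERK -/- DMSO libraries (SD, n = 3). Ret, the signalling partner of GFRAL, averaged between 0.0472 and 4.29 CPM.

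For adrenomedullin 2, the receptor Calcrl stood at 8.52 ± 0.979 CPM in WT and 6.69 ± 1.37 CPM in PERK -/- DMSO libraries. Its log2 change with thapsigargin was lower in PERK -/- than in WT cells (difference -1.45 ± 0.271, edgeR adjusted p = 7.45e-05). Ramp3, a partner of Calcrl, was 4.06 log2 units lower in PERK -/- than in WT DMSO libraries (-4.06 ± 0.254, 1.21e-14). Ramp2, another partner, went the other way in thapsigargin, where it was higher in PERK -/- cells (2.41, edgeR adjusted p = 0.00338). It was also higher there with halofuginone and thapsigargin (6.50, 2.82e-05). Ramp3 was lower in both treatments (-3.50 and -5.91). Whether the receptor as a whole differs between the genotypes was not tested.

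Of the VEGF-A receptors, Flt1 stood at 18.9 ± 4.65 CPM in WT DMSO libraries and at 70.3 ± 14.3 CPM with halofuginone, and Kdr at 0.0206 and 2.80 CPM. Nrp1, a co-receptor, fell with thapsigargin in WT cells (-1.04 ± 0.132, edgeR adjusted p = 9.9e-08). Pappa, the protease that stanniocalcin 2 inhibits, rose with thapsigargin in PERK -/- cells (1.51 ± 0.281, 9.79e-05), where Stc2 fell. Of the 13 tested receptors and partners, 10 rose and 0 fell with halofuginone in WT cells (median log2 change 1.67), where 34.7% of all tested genes rose and 33.4% fell. In PERK -/- cells 5 rose and 0 fell (median 0.37), where 21.2% of all genes rose and 21.0% fell.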

How the data were processed

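RNA of 36 mouse embryonic fibroblast libraries (12 groups of 3) was measured by RNA-seq. Per the labels' protocols, a strand-specific kit was used with ribosomal depletion and mRNA selection. Values in the authors' table are estimated counts, 1 value per gene and library and without scaling; the submitters' processing notes name GRCm39 and DESeq, and the aligner, counter and use of strand are not given in the sources used here. A placeholder of 0.025 fills 50.6% of the deposited count cells in place of 0, and 2.69% of the remaining cells hold fractions. From these counts, 27 entries named by dates (0.206% to 0.278% of a library) were left out, 39 symbols on 86 entries were summed, and values were rounded. In GENCODE M21 no annotated gene overlaps any of the 5 genes, and exon lengths come from it.

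Tests used edgeR 4.0.16 and R 4.3.3 (TMM scaling, filterByExpr by group, robust quasi-likelihood fit of 12 group means, 24 residual degrees of freedom, common dispersion 0.0199) in 21 comparisons, each adjusted by Benjamini-Hochberg over 16065 genes. The SE is the log2 fold change over the root of F. Ratios of pooled counts have exact binomial intervals (95%), which cover counting error only. The fit was tested on simulated data. Alternatives were size factors or no scaling, no filter, a replicate block, only the compared groups, DESeq2 1.42.0, and each library left out. Same-numbered libraries deviated together (every correlation over 0.1) only in WT, for BtdCPU and thapsigargin against thapsigargin (0.159 to 0.337) and for halofuginone and thapsigargin against thapsigargin (0.162 to 0.308). There the number was taken as a pairing, which was read from these data and is not in the labels. Other WT comparisons, with correlations up to 0.287 for single replicates, were left unpaired. Libraries of a group differed by a chi-square of at least 9.66 per degree of freedom, so none repeated another.

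The 5 genes and the lists beside them were chosen with earlier results of these data known. Values of list genes are printed for the largest called rise or fall of a list in a comparison, and for levels of receptors. The 3 nearest genes of each transcript were taken by Pearson's r among genes averaging 2 or more in log2 CPM.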

Additional observations from a re-analysis of the deposited data

Results flagged for a closer look

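The results below are those where the responses of the genotypes differed by a test of the difference itself (log2 change in PERK -/- cells minus that in WT cells, edgeR's quasi-likelihood test). For thapsigargin against DMSO the differences were -4.25 for Gdf15 (adjusted p = 0.019), -3.90 for Adm2 (3.73e-05), -3.80 for Stc2 (2.31e-11) and -2.21 for Vegfa (4.27e-10). The Gdf15 value rests on 5 counts in PERK -/- and 6 counts in WT DMSO libraries. Every thapsigargin library of WT cells was above DMSO for Stc2, and every one of PERK -/- cells below it.

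For BtdCPU against DMSO the difference was -2.14 for Stc2 (adjusted p = 0.000158). For halofuginone against DMSO it was -1.07 for Stc2 (0.00401) and -0.63 for Vegfa (0.0131). Stc2 started from 24.1 CPM in PERK -/- and 6.35 CPM in WT DMSO libraries.

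For BtdCPU added to thapsigargin the differences were 4.37 for Fgf21 (adjusted p = 5.64e-06), 3.60 for Gdf15 (0.000181), 3.43 for Adm2 (5.21e-06), 1.91 for Stc2 (8.13e-06) and 1.79 for Vegfa (9.53e-08). For halofuginone added to thapsigargin they were 3.75 for Fgf21 (2.06e-05), 3.59 for Adm2 (9.9e-07), 2.41 for Gdf15 (0.00525), 2.12 for Stc2 (6.89e-07) and 1.46 for Vegfa (8.89e-07). Each of these shares the thapsigargin libraries with the comparison of thapsigargin against DMSO.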

How the results depend on the processing

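Of 105 results (5 transcripts in 21 comparisons), 74 were called and 66 of these stayed called under every alternative run; 0 changed direction with a call. Leaving out 1 library lost a call in 24 of 780 refits and made one in 6. The other alternatives lost 2 and made 16 of 627. The number of transcripts called was 5 in place of 3 without the count filter for PERK -/- against WT in halofuginone, and 4 in place of 2 for the same contrast in BtdCPU with thapsigargin. With 1 library left out it ran from 1 to 3 for thapsigargin in PERK -/- cells, from 1 to 2 for the genotype difference with BtdCPU, from 1 to 3 for that with halofuginone, from 3 to 4 for the genotypes in halofuginone and from 1 to 2 for the genotypes in BtdCPU with thapsigargin. A left-out library also changed the number for the genotype difference with thapsigargin and for halofuginone over thapsigargin in WT cells. The same held for the genotypes in BtdCPU and in halofuginone with thapsigargin. The cause was not tested.

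A replicate block changed 4 of the 105 calls. Beside Adm2 in the WT libraries taken as pairs (-0.68, adjusted p = 0.00415), it called Stc2 for BtdCPU in PERK -/- cells (0.60, 0.0256). It also called Adm2 for the genotypes in halofuginone (0.54, 0.0192) and in BtdCPU with thapsigargin (-0.48, 0.0355). Apart from the WT libraries taken as pairs, these libraries share only a number. Size factors changed 0 calls and unscaled library sizes 1; the latter moved the median of all genes by -0.114 for halofuginone in WT cells, 0.103 for its genotype difference, and 0.136, 0.159 and 0.101 for the genotypes in BtdCPU, halofuginone and halofuginone with thapsigargin. They also moved the share of calls that were higher from 58.1% to 45.1% for BtdCPU in WT cells, from 55.9% to 80.7% when it was added to thapsigargin in WT cells, from 51.6% to 41.4% for the genotype difference of that addition and from 48.9% to 59.8% for the genotypes in BtdCPU.

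Shares of all genes called moved most with BtdCPU. In WT cells the share was 22.2%, but 6.18% with only the compared groups and 34.5% with the block; over thapsigargin it was 2.32%, but 0.162% and 12.9%, and 7.60% by DESeq2. In PERK -/- cells it was 3.59%, but 9.28% with only the compared groups, 9.82% with the block and 6.77% by DESeq2. For the genotype difference it was 0.199%, but 0.0138% and 5.13% (without WT BtdCPU replicate 2). Without the filter more genes are tested and the shares fell in most comparisons, for example from 47.6% to 26.3% for thapsigargin and from 68.2% to 38.9% for halofuginone in WT cells. DMSO counts limit the folds of Gdf15 and Fgf21.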

Other observations

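Relatives of the secreted factors were read beside them, with no test of a difference between the lists. Of 16 tested relatives, 4 rose and 9 fell with thapsigargin in WT cells, with a median log2 change of -0.74, where 24.9% of all tested genes rose and 22.7% fell; the number that rose is near the share of all genes. Tgfb3, a growth factor of the same superfamily as GDF15, fell most (-2.31 ± 0.197 SE, edgeR adjusted p = 3.5e-11). Halofuginone in WT cells raised 5 and lowered 5 of the 16, beside 34.7% of all genes raised and 33.4% lowered, shares near those of the list. Tgfb2 rose by 3.10 ± 0.256 (4.05e-12) and Tgfb3 fell by 2.83 on the log2 scale (1.74e-13).

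Adm, the gene of adrenomedullin and the closest relative of Adm2, separated the genotypes in every treatment. It held 230, 194 and 180 counts in the WT DMSO libraries and 2, 3 and 0 in the PERK -/- DMSO libraries, and with BtdCPU 339, 163 and 398 against 0, 0 and 0. No PERK -/- library of any treatment held more than 12 counts of Adm, while Adm2 in DMSO did not differ detectably (adjusted p = 0.955). Inhba, a subunit of activin A, rose when halofuginone was added to thapsigargin in WT cells (2.71 ± 0.234, edgeR adjusted p = 1.17e-10), and its response was smaller in PERK -/- cells (-1.72 ± 0.315, 7.06e-05).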
